A study of Macaca mulatta with 28 samples.

Results

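Messenger RNA was measured in the ventral tegmental area (VTA) of male wild-type rhesus macaques, and the comparison described here set the low and binge drinkers against the very heavy drinkers. The animals were chosen by their drinking label alone: 1 low drinker and 2 binge drinkers formed one arm of 3, the 9 very heavy drinkers formed the other, and together they were 12 of the 28 animals in the series. The remaining animals were 11 controls, whose range was used as the yardstick for every difference, and 5 heavy drinkers, which entered the model only to estimate the spread. All drinkers were first induced to drink by schedule-induced polydipsia and then had 22 h of daily access to 4% ethanol beside water, with 3 imposed periods of abstinence, and tissue was taken after 30 days without ethanol. Controls never drank ethanol and were calorically matched or housing controls. The animals were 7 to about 8 years old, each library came from a different animal, and the labels gave drinking as a category assigned from intake. The animals came from 2 cohorts. The low drinker belonged to cohort 1 and both binge drinkers to cohort 2, whereas 3 very heavy drinkers belonged to cohort 1 and 6 to cohort 2. The low label and cohort 1 therefore cannot be told apart within the smaller arm.

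The VTA lies in the midbrain and holds dopamine neurons that project to the nucleus accumbens and prefrontal cortex, together with GABA and glutamate neurons and abundant glia. Dopamine neurons make dopamine with tyrosine hydroxylase (TH), load it into vesicles through VMAT2 (SLC18A2) and recover it through the dopamine transporter DAT (SLC6A3). D2 autoreceptors (DRD2) and kappa opioid receptors (OPRK1), whose ligand is cut from prodynorphin (PDYN), restrain their firing and release. Ethanol is known to excite these neurons, and the D2 and kappa opioid systems are among those altered after long drinking in animal models.

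Total estimated counts ranged from 19340745 to 21597478 in the 3 low and binge drinkers and from 14338548 to 24845484 in the 9 very heavy drinkers. The 13 mitochondrially encoded transcripts took 47.0% ± 5.20 (SD, n = 3) of the counts in the first arm and 50.1% ± 6.01 (SD, n = 9) in the second, and neither depth (exact permutation p = 0.845, two-sided) nor this share (exact permutation p = 0.45, two-sided) separated the arms. Over the 4 library values tested, the adjusted p ran from 0.9 to 0.964. With 3 animals against 9 there are 220 splits, so that the smallest p an exact test of this kind allows is 0.00455. The low drinker's library stood apart from the other 27. It had 10554 transcripts with a count, the fewest of all 28 libraries, where the binge drinkers had 12676 and 12566. It held 115 transcripts at 0 that had at least 10 counts in every other animal, against 0 to 49 such transcripts in the others, with a median of 5. The 3 very heavy drinkers of cohort 1 had 49, 48 and 20, whereas the 6 of cohort 2 had 1 to 11 and the binge drinkers had 2 and 0. Fold changes of the genes described below are therefore mostly given with and without it.

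**Figure D1:**
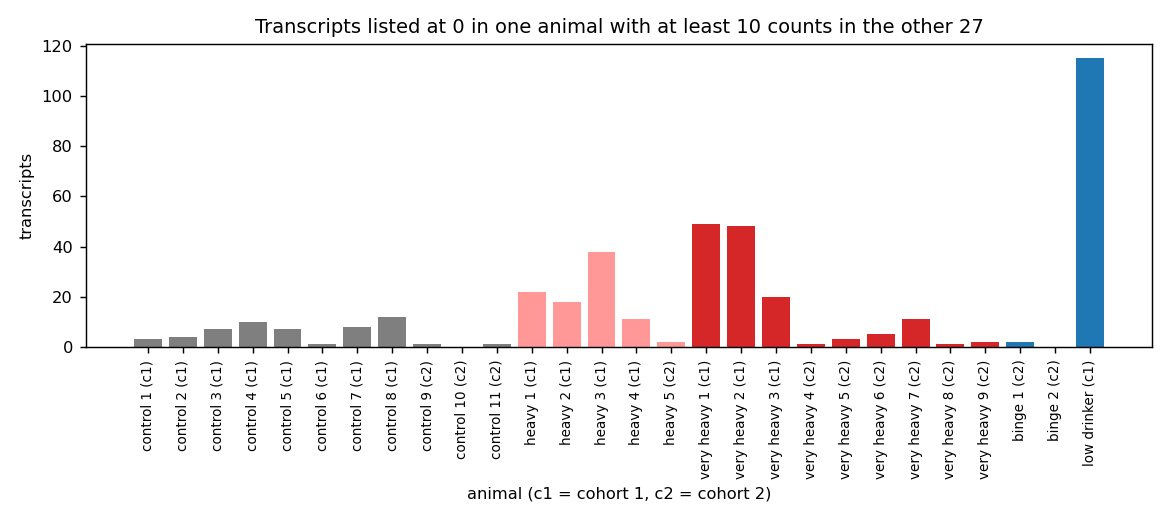
Bars show, for each of the 28 animals, how many transcripts had no count there but at least 10 counts in each of the other 27 animals (y axis, number of transcripts; bars start at 0 and are coloured by group). The low drinker reached 115, the next highest animal 49.

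Across the 13769 transcripts that passed the filter on low counts, none differed between the low and binge drinkers and the very heavy drinkers at an adjusted p under 0.05 in the quasi-likelihood test of edgeR. No transcript had an adjusted p below 1. At an unadjusted p under 0.05 the test gave 601 transcripts, or 4.36% of those tested, of which 255 (1.85%) were higher and 346 (2.51%) lower in the low and binge drinkers. Without the low drinker the number at this level was 356, and 189 transcripts were in both sets. The same count was 564 without binge drinker 1 and 679 without binge drinker 2. DESeq2's Wald test called 90 transcripts at an adjusted p under 0.05, of which 81 had a count of 0 in at least 10 of the 28 animals, and limma-voom called 2, CNOT6L and ICAM1, which also had a count of 0 in at least 10 animals. Only 3 of the DESeq2 calls, EMILIN3, PSAP and TGFBR3, had at least 10 counts in every animal. In the same fit the low and binge drinkers against controls gave 0 adjusted calls and 667 transcripts (4.84%) at an unadjusted p under 0.05, 312 higher (2.27%) and 355 lower (2.58%), and the very heavy drinkers against controls gave 0 and 615 (4.47%), 303 higher (2.2%) and 312 lower (2.27%). These comparisons share animals with the one above and are not independent of it.

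The cohorts differed in what they gave. With cohort as a term in the fit there were 0 adjusted calls and 641 transcripts at an unadjusted p under 0.05 by edgeR. Within cohort 2, the 2 binge drinkers against 6 very heavy drinkers gave 1 adjusted call, ZNF235. Within cohort 1, the low drinker against 3 very heavy drinkers gave 185 calls, 12 higher and 173 lower. Against all 9 very heavy drinkers the low drinker alone gave 386 calls, 19 higher and 367 lower, and 268 of the 386 were at 0 in its library. These last fits assume that a lone animal varies like the other groups. On the fifth principal component of the variance-stabilised counts the low drinker scored -18.0, while the binge drinkers scored -1.88 and 0.964, the very heavy drinkers -3.68 to 1.61 and the controls -1.83 to 3.66. None of the top 5 components separated the arms (lowest exact permutation p = 0.145, two-sided, adjusted p = 0.727 over 5).

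The precision of the design set what could be seen. Of the 7637 transcripts with at least 10 counts in every animal, 292 (3.82%) had an unadjusted p under 0.05. Among them all, the median standard error of the log2 fold change was 0.21, the median size of the log2 fold change was 0.14 and 95% of them were smaller than 0.55. Sparse transcripts were frequent among the very lowest p values. Of the 100 transcripts with the lowest p, 53 had a count of 0 in at least 10 animals, against 18.7% of all transcripts tested. The genes named below were mainly drawn from the 7637 well-covered transcripts and from gene lists.

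Most of these differences fell inside the controls' range. The mean of the low and binge drinkers lay between the lowest and the highest control for 92.3% of transcripts, and the mean of the very heavy drinkers did so for 97.3%. The distance between the means of the 2 arms had a median of 17.3% of the controls' range on the log2 scale, and it was wider than the whole range for 154 transcripts, a count that was 88 without the low drinker and 335 and 345 without binge drinker 1 and 2. For 87 transcripts (0.632%) the 3 low and binge drinkers did not overlap the 9 very heavy drinkers, with 51 above (0.37%) and 36 below them (0.261%). For 73 transcripts (0.53%) the 3 lay together outside all 11 controls, 48 above (0.349%) and 25 below (0.182%), and for 0 transcripts did all 9 very heavy drinkers do so. Larger arms are less likely to fall wholly outside a range, so these counts are not comparable between arms. Both conditions held for 11 transcripts (0.0799%), 10 of them with the low and binge drinkers above both other groups (0.0726%) and 1 with them below (0.00726%). Of the 11, 6 were among the well-covered transcripts (0.0786% of those), 5 above (0.0655%) and 1 below (0.0131%), and they are described next. These 6 were picked for this separation, so their values are a description and their p values are not support for it.

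EMILIN3, an extracellular matrix glycoprotein (Mmul_10 chromosome 10, 76619872 to 76626488, minus strand), had the largest log2 fold change of the 6. It measured 4.51 and 4.92 CPM (counts scaled to the size of the library) in the binge drinkers and 2.45 CPM in the low drinker. The very heavy drinkers ran from 0.571 CPM through a median of 0.986 to 2.27, and the controls from 0.549 through 1.27 to 2.35. Both binge drinkers stood clear of all very heavy drinkers and controls, whereas the low drinker was just above the highest control. The log2 fold change against very heavy drinkers was 1.78 (SE 0.43, 95% interval 0.90 to 2.67, unadjusted p = 0.000317, adjusted p = 1 by edgeR), and 2.03 without the low drinker.

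TGFBR3 encodes betaglycan, a co-receptor for transforming growth factor beta, and FOXO1 a forkhead transcription factor that insulin signalling keeps out of the nucleus. TGFBR3 (chromosome 1, 132294561 to 132501703, plus strand) measured 32.6, 22.9 and 28.9 CPM in binge drinker 1, binge drinker 2 and the low drinker. Very heavy drinkers spanned 11.3 to 21.7 CPM with a median of 17.9, and controls 12.5 to 21.9 with a median of 17.7. The medians of very heavy drinkers and controls thus lay close together, and the 3 low and binge drinkers lay above both, although binge drinker 2 was only just so. The log2 fold change of TGFBR3 was 0.68 (SE 0.18, 95% interval 0.31 to 1.05, unadjusted p = 0.000731), and 0.66 without the low drinker. FOXO1 (chromosome 17, 19245471 to 19357233, minus strand) measured 43.5, 41.5 and 46.5 CPM in the same animals, against 24.8 to 37.3 CPM in very heavy drinkers (median 34.1) and 26.7 to 37.7 in controls (median 30.5). Its log2 fold change was 0.46 (SE 0.13, unadjusted p = 0.00134), and 0.42 without the low drinker. The gap between the lowest binge drinker and the highest control was wider for FOXO1 than for TGFBR3.

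ZBTB34, a zinc finger and BTB domain protein, and NDST3, an enzyme that deacetylates and sulfates heparan sulfate chains, were also above the very heavy drinkers and the controls. ZBTB34 measured 6.41 and 6.51 CPM in the binge drinkers and 8.25 in the low drinker, against at most 5.99 CPM in very heavy drinkers and 6.13 in controls. NDST3 measured 18.2, 16.8 and 17.8 CPM, with the highest very heavy drinker at 16.6 and the highest control at 14.9. For NDST3 the separation from the very heavy drinkers was narrow and 2 of the 9 also exceeded every control. The log2 fold change was 0.62 (unadjusted p = 0.00846) for ZBTB34 and 0.43 (unadjusted p = 0.0743) for NDST3, and without the low drinker 0.49 and 0.42. The 5 heavy drinkers entered the choice of these genes only through the count filter, the scaling and the spread of the fit. They overlapped the 3 animals for EMILIN3 (highest heavy drinker 2.72 CPM, above the low drinker) and NDST3 (22.9 CPM, above all 3). Their highest values were 21.94 CPM for TGFBR3, 38.9 for FOXO1 and 5.51 for ZBTB34, under all 3. PFDN2, a subunit of the prefoldin complex that hands newly made actin and tubulin to a chaperonin, was the only one below both groups. It measured 53.2, 52.6 and 52.9 CPM in the low and binge drinkers. Very heavy drinkers spanned 59.5 to 72.7, heavy drinkers 54.6 to 70.1 and controls 54.4 to 74.1. The 3 animals agreed within 1 CPM of each other and sat just under the lowest control, with a log2 fold change of -0.31 (SE 0.09, unadjusted p = 0.00239) that was the same without the low drinker. Without scaling beyond library size it was -0.19 (unadjusted p = 0.255 by edgeR), and the separation from both groups was lost. Sparser transcripts with this pattern included PRR16, CR1, SH3YL1 and DDX52, all higher. PRR16 measured 5.78, 4.87 and 4.52 CPM in the low and binge drinkers, 0.499 to 4.43 in very heavy drinkers and 1.83 to 4.44 in controls.

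**Figure D2:**
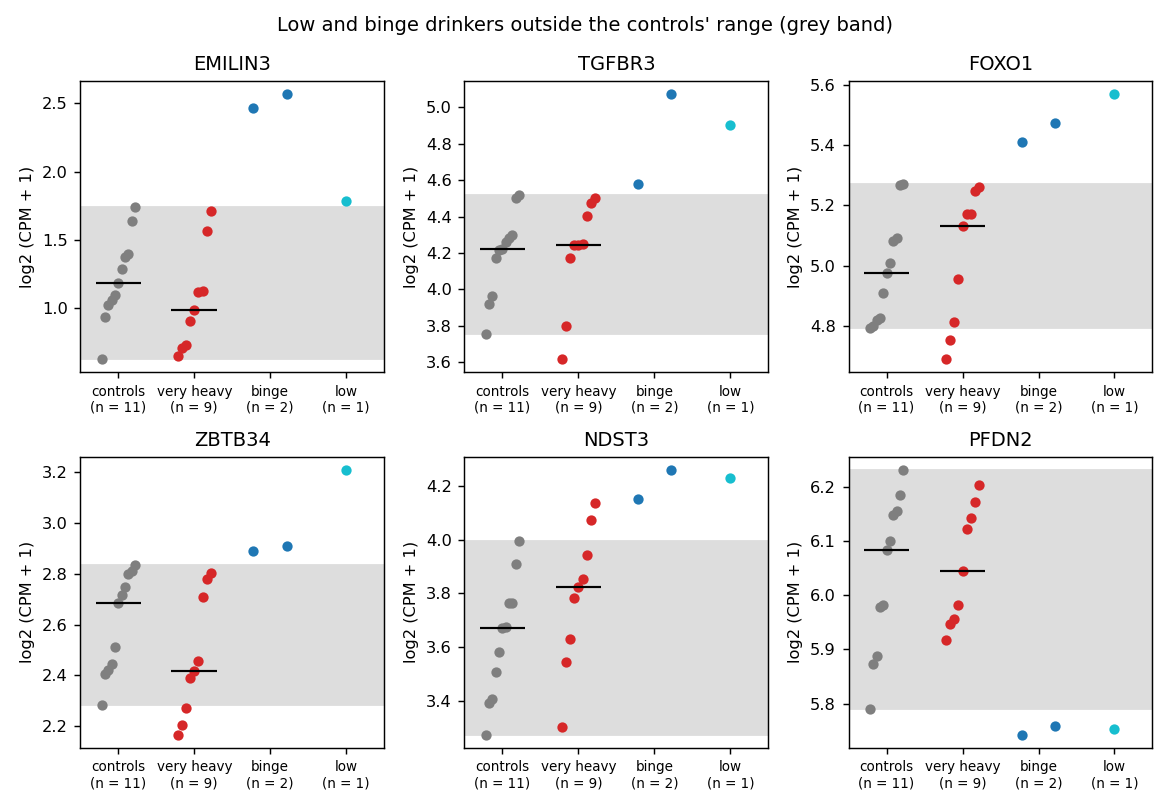
Each panel plots 1 of the 6 well-covered genes (y axis, log2 of CPM + 1) with 1 point per animal in the controls, low and binge drinkers and very heavy drinkers; the grey band is the range of the 11 controls and the black lines are group medians. The 3 low and binge drinkers lie above the band for 5 genes and below it for PFDN2.

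The other well-covered genes with the smallest p values mostly overlapped between the arms or reached into the controls' range. TJP1 encodes ZO-1, a scaffold of tight junctions. It measured 55.7 and 46.0 CPM in the binge drinkers and 44.2 in the low drinker, against 12.9 to 35.5 CPM in very heavy drinkers (median 30.4) and 20.8 to 52.7 in controls (median 31.7). Here 1 binge drinker exceeded the controls and 3 very heavy drinkers lay under them, so the log2 fold change of 0.91 (SE 0.26, unadjusted p = 0.00174) was made of a value of 0.54 against controls for low and binge drinkers and -0.37 for very heavy drinkers. Without the low drinker it was 0.98. SOCS6, a suppressor of cytokine signalling, overlapped between the arms, at 22.1, 28.3 and 28.0 CPM against 13.2 to 23.3 in very heavy drinkers and 15.5 to 26.7 in controls (log2 fold change 0.57, and 0.52 without the low drinker). HAUS4, a subunit of the augmin complex of the mitotic spindle, measured 33.6, 31.5 and 33.4 CPM and did not overlap the very heavy drinkers at 15.0 to 29.0, yet all 3 were inside the controls at 20.9 to 41.8 (log2 fold change 0.56, and 0.55 without the low drinker).

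The low drinker decided the size of some of these differences. KRIT1, an endothelial junction protein mutated in cerebral cavernous malformations, measured 34.3 CPM in the low drinker but 21.1 and 17.5 in the binge drinkers, against 11.4 to 20.7 in very heavy drinkers and 12.8 to 22.6 in controls. Its log2 fold change was 0.67, and 0.34 without the low drinker. ZNF3, a zinc finger protein, likewise went from 0.79 to 0.38. Binge drinkers carried others. CDH23, a cadherin best known from the tip links of hair cells, measured 23.6 and 93.3 CPM in the binge drinkers but 4.52 in the low drinker, which was inside the very heavy drinkers' 3.54 to 14.8. The highest control reached 74.1 CPM, so only binge drinker 2 was above the controls, and the log2 fold change was 2.50 with the low drinker and 3.03 without it. SLC22A4, an organic cation transporter that carries ergothioneine, was at 17.0 CPM in binge drinker 1 and at 5.69 and 4.52 in the other two animals, and the last 2 values were within the very heavy drinkers' 2.82 to 5.92.

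Among the well-covered genes that were lower in the low and binge drinkers, PSAP had the smallest p. It encodes prosaposin, the precursor of the saposins that activate sphingolipid breakdown in lysosomes. PSAP measured 331 and 390 CPM in the binge drinkers and 204 in the low drinker, against 335 to 552 in very heavy drinkers (median 470.0) and 351 to 468 in controls (median 395). Of the 9 very heavy drinkers 5 were above every control, and of the 3 low and binge drinkers 2 were below every control, so the distance between the arms was 148% of the controls' range, and 82.1% without the low drinker. The log2 fold change was -0.58 (SE 0.16, 95% interval -0.90 to -0.26, unadjusted p = 0.000967), and -0.36 without the low drinker. PSAP (chromosome 9, 65924117 to 65958720, plus strand) and CDH23 (chromosome 9, 65959072 to 66379116, minus strand) are neighbours that converge, with 351 bases between their annotated ends.

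ZMAT2, a component of the spliceosome, also lay across the controls' range. Its CPM was 77.2 and 83.2 in the binge drinkers and 92.6 in the low drinker, 92.7 to 128 in very heavy drinkers and 86.3 to 106 in controls, so that the low drinker and the lowest very heavy drinker nearly met. The distance was 108% of the controls' range (132% without the low drinker) and the log2 fold change -0.32 (SE 0.10, unadjusted p = 0.00319), and -0.39 without the low drinker. IGFLR1, a receptor of the tumour necrosis factor receptor family, placed all 3 low and binge drinkers below the controls, at 17.7, 21.5 and 17.2 CPM against 21.9 to 30.1, but the very heavy drinkers reached down to 17.8 and overlapped them. LRRC41, a substrate adaptor of a ubiquitin ligase, measured 22.5, 19.98 and 16.2 CPM against 22.4 to 56.3 in very heavy drinkers and 17.6 to 53.8 in controls. Only the low drinker was under the lowest control. UBXN1, a cofactor of the p97 ATPase, and TXNL1, a thioredoxin-like protein bound to the proteasome, had log2 fold changes of -0.33 and -0.59 (-0.25 and -0.54 without the low drinker), each with only the low drinker below every control. USB1, which trims U6 small nuclear RNA, had -0.35 (-0.28 without the low drinker), with the low drinker and binge drinker 1 below every control. LHFPL5, a hair-cell channel subunit like CDH23 in its known site of action, had -0.56 with or without the low drinker, with 1 binge drinker below the controls. DNAJC6, or auxilin, strips clathrin from vesicles and is mutated in a juvenile form of Parkinson disease. It measured 1.15, 1.18 and 1.49 CPM in the low and binge drinkers and 2.22 to 7.10 in the very heavy drinkers, without overlap, while controls spanned 0.759 to 7.85 and held all 12 animals. Its log2 fold change was -1.66 (SE 0.54, unadjusted p = 0.00447), and -1.79 without the low drinker. Without scaling beyond library size the values were -0.20 for ZMAT2, -0.20 for UBXN1, -0.23 for USB1, -0.33 for IGFLR1 and -0.45 for LHFPL5, with unadjusted p values of 0.247, 0.209, 0.191, 0.103 and 0.0543 by edgeR.

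**Figure D3:**
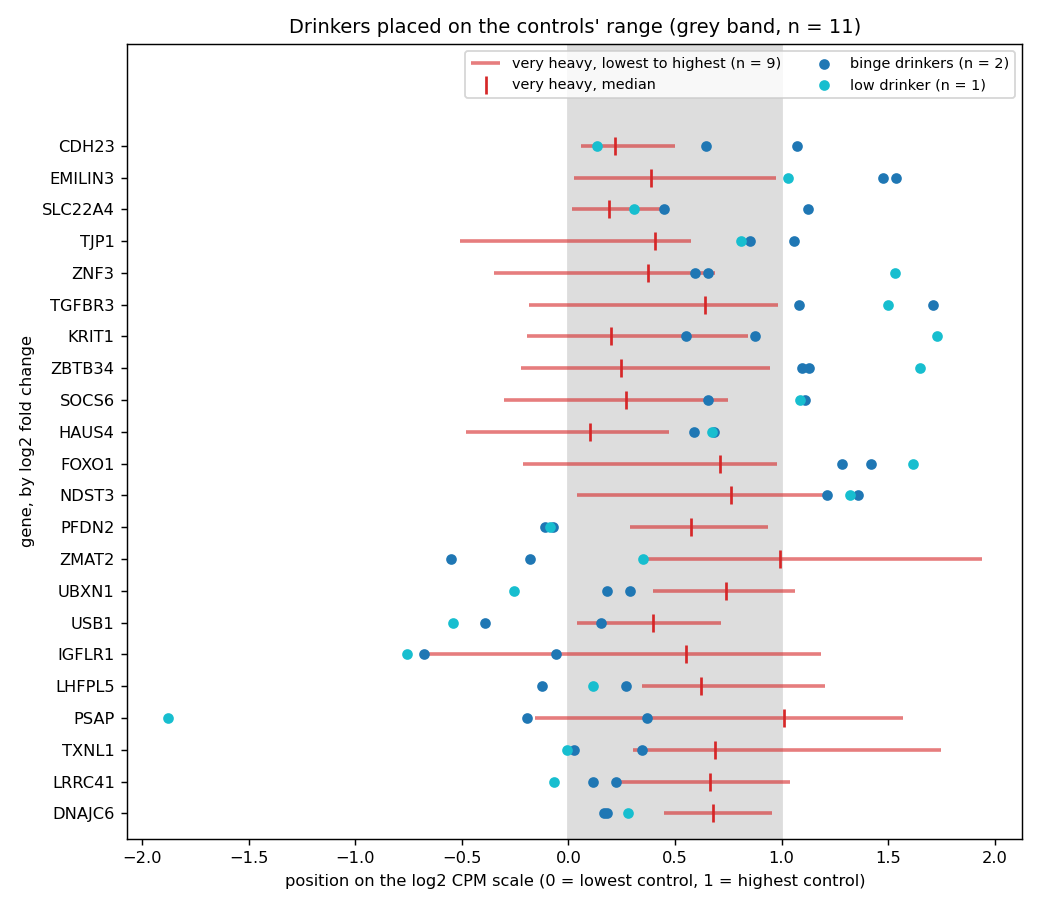
Each of 22 genes is placed on the controls' range (x axis, share of the range on the log2 scale; 0 is the lowest and 1 the highest of the 11 controls). Red lines run from the lowest to the highest of the 9 very heavy drinkers with a tick at their median, and dots are the 3 low and binge drinkers. For PSAP 2 dots lie under the range while the median tick of the red line lies above it, and for DNAJC6 both stay inside.

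DAT, VMAT2 and TH varied by more than 10 times within the low and binge drinkers and within the very heavy drinkers, and the comparison could not resolve a difference in them. DAT (SLC6A3) measured 11.9 CPM in binge drinker 1, 437 in binge drinker 2 and 189.8 in the low drinker. The very heavy drinkers ran from 8.91 through a median of 51.7 to 833, and the controls from 6.35 through 75.8 to 802. All 3 low and binge drinkers were inside the controls' range, and 1 very heavy drinker was above it. The log2 fold change was -0.21 with a 95% interval of -3.07 to 2.65, so that sizeable differences in either direction remained inside it. VMAT2 (SLC18A2) measured 2.85, 39.6 and 28.7 CPM in the same order of animals, against 0.935 to 117 in very heavy drinkers and 0.140 to 151 in controls (log2 fold change -0.52, SE 1.41). Without the low drinker the values were -0.13 for DAT and -0.68 for VMAT2. TH measured 22.4, 227 and 153 CPM against 10.3 to 464 and 5.81 to 826. Binge drinker 1 was low and binge drinker 2 was high for all 3 genes. The sum of the 17 dopamine neuron markers showed the same order, at 121, 941 and 480.3 CPM, with 57.5 to 1893 in very heavy drinkers and 59.2 to 2051 in controls. In bulk tissue a smaller number of dopamine neurons in the dissected piece and less RNA per neuron cannot be told apart. Among the 12 genes of dopamine synthesis, transport and breakdown, 2 had a positive and 10 a negative log2 fold change with a median of -0.21, beside -0.03 over all transcripts, and none had an unadjusted p under 0.05.

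DRD2 measured 14.1 and 51.4 CPM in the binge drinkers and was listed at 0 in the low drinker, where 2 of the 11 controls were also at 0. Very heavy drinkers spanned 2.27 to 74.9 CPM and controls reached 87.4. Its log2 fold change was -0.48 (SE 1.45) and turned to 0.11 without the low drinker. DRD1 and DRD5, the D1-class receptors, had log2 fold changes of 0.40 and 0.37 with SEs of 0.45 and 0.41, and of 0.27 and 0.31 without the low drinker. All 3 low and binge drinkers lay inside the controls for both. The 5 dopamine receptor genes had a median of 0.37 and 0 of them had an unadjusted p under 0.05.

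The kappa opioid genes also overlapped between the arms. OPRK1 measured 5.97 and 10.6 CPM in the binge drinkers and 5.27 in the low drinker, 3.58 to 16.1 in very heavy drinkers (median 3.87) and 1.83 to 23.1 in controls (median 7.34). The median very heavy drinker was below all 3 low and binge drinkers, but the log2 fold change was only 0.22 with a 95% interval of -0.96 to 1.40, and 0.41 without the low drinker. PDYN measured 9.89, 9.38 and 18.5 CPM, against 3.06 to 18.0 in very heavy drinkers and 3.89 to 36.7 in controls. Its log2 fold change of 0.39 rested on the low drinker and was 0.01 without it. ARRB1, the arrestin that uncouples activated receptors from G proteins, measured 34.5, 29.2 and 24.2 CPM against 19.5 to 32.9 in very heavy drinkers and 21.5 to 34.0 in controls (log2 fold change 0.18, SE 0.15, and 0.30 without the low drinker). ARRB2 did not pass the filter on low counts.

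VGLUT2 (SLC17A6), which loads glutamate into vesicles, and VGAT (SLC32A1), which loads GABA, mark the non-dopamine neurons. VGLUT2 measured 146, 120.2 and 109 CPM in the low and binge drinkers, 61.5 to 237 in very heavy drinkers and 29.7 to 218 in controls. VGAT measured 64.4, 78.2 and 131 CPM, against 54.7 to 133 and 57.0 to 160. Both overlapped between the arms, with log2 fold changes of -0.15 (SE 0.46) and -0.06 (SE 0.28). The value for VGAT rested on the low drinker and was -0.41 without it, while that for VGLUT2 was -0.06.

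**Figure D4:**
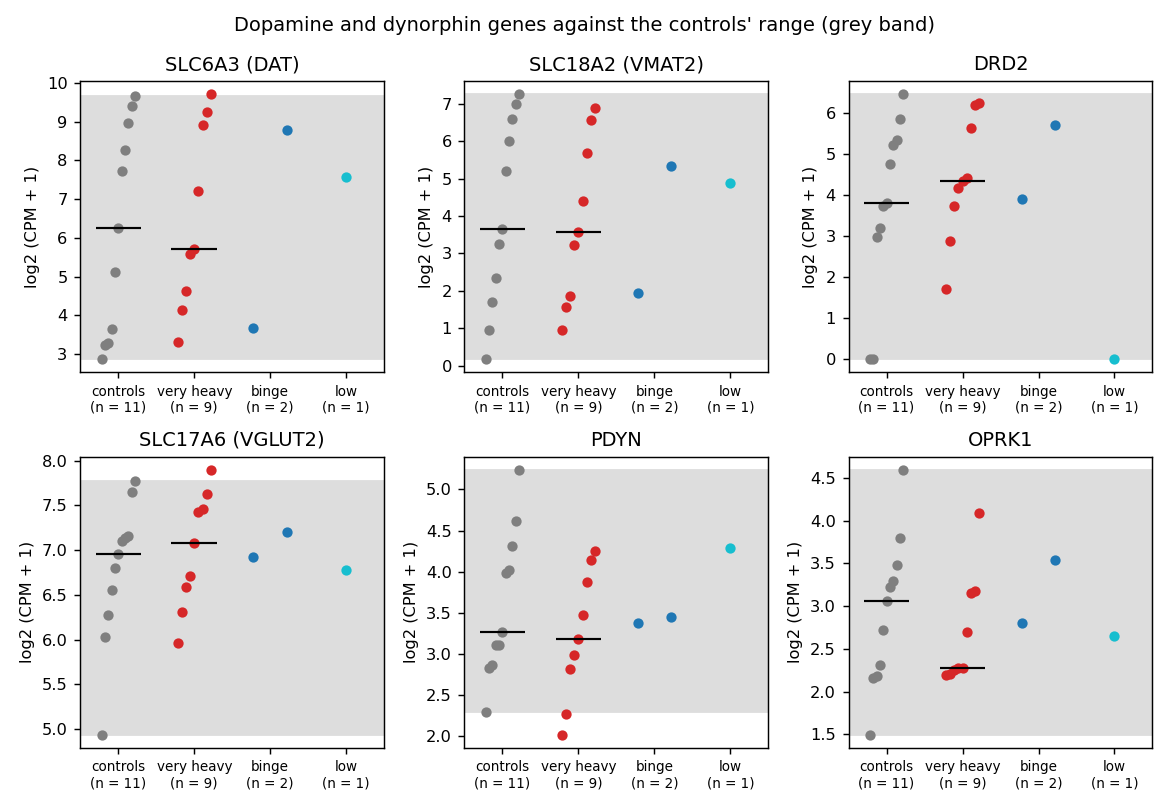
Each panel plots DAT (SLC6A3), VMAT2 (SLC18A2), DRD2, VGLUT2 (SLC17A6), PDYN or OPRK1 (y axis, log2 of CPM + 1) with 1 point per animal; the grey band is the range of the 11 controls and the black lines are group medians. The low and binge drinkers lie inside the band in all 6 panels.

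Pathway genes gave few small p values. Of 336 members of 24 lists that passed the filter, 19 (5.65%) had an unadjusted p under 0.05, 8 higher and 11 lower, beside 4.36% of all transcripts. Without the low drinker 9 did so (2.68%), beside 2.59% of all. None passed the adjusted threshold in edgeR, while DESeq2's Wald test called UNC13B. The mean of the low and binge drinkers was inside the controls' range for 320 of the 336 and that of the very heavy drinkers for 329, and the median distance between the arms was 16.6% of that range. Of the 19, 10 had a count of 0 in at least 10 animals. Those 10 include GABRG1 and UNC13B, which were listed at 0 in all 9 very heavy drinkers. GABRG1, a gamma subunit of the GABA-A receptor, measured only 0.949 and 1.33 CPM in 2 of the 3 animals, and UNC13B, a vesicle priming protein, measured 3.80 and 9.47 CPM in the binge drinkers and 0 in the low drinker, with 5 controls above 0 and reaching 17.4. Only 6 of the 19 had at least 10 counts in every animal, and these were NFKB1, DBP, CRY2, MVD, SOD3 and DNAJC6.

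Of the 18 innate immune genes 2 had an unadjusted p under 0.05 by edgeR, both higher and NFKB1 among them, beside 4.36% of all transcripts. Without the low drinker 1 did so, beside 2.59% of all. The list had a median of -0.03. NFKB1, the p50 precursor of the NF-kappaB factor, measured 23.0, 22.5 and 24.5 CPM in the low and binge drinkers and 13.9 to 21.2 in the very heavy drinkers. The 2 arms did not overlap, but controls spanned 15.7 to 23.5 and only the low drinker exceeded them (log2 fold change 0.36, SE 0.13, unadjusted p = 0.00946), and the value was 0.32 without the low drinker.

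Clock genes gave 1 member in each direction among 18 at an unadjusted p under 0.05 by edgeR. Over all transcripts 1.85% were higher and 2.51% lower at that level. Without the low drinker 0 of the clock genes reached it. CRY2, a repressor of the circadian loop, measured 24.4, 20.3 and 25.9 CPM against 4.61 to 20.9 in very heavy drinkers and 11.3 to 28.6 in controls (log2 fold change 0.66, and 0.59 with an unadjusted p of 0.107 by edgeR without the low drinker). DBP, a transcription factor whose level cycles with the clock, measured 7.91 and 7.97 CPM in the binge drinkers and 0.532 in the low drinker, against 7.10 to 18.9 in very heavy drinkers and 6.18 to 17.6 in controls. Its log2 fold change of -1.09 became -0.55 (unadjusted p = 0.135 by edgeR) without the low drinker, which was the only one of the 3 outside the controls. Of 18 genes of cholesterol synthesis and uptake, 1 had an unadjusted p under 0.05 by edgeR, beside 4.36% of all transcripts. This was MVD, which makes isopentenyl diphosphate, at 26.8, 31.8 and 21.8 CPM against 24.9 to 51.0 in very heavy drinkers and 33.6 to 69.7 in controls. It was the only 1 of the 336 pathway members with all 3 low and binge drinkers outside the controls, beside 0.53% of all transcripts. Of the 9 very heavy drinkers, 3 were below the controls too. The log2 fold change of MVD was -0.48. It was -0.35 without the low drinker and -0.35 without scaling beyond library size (unadjusted p = 0.184 and 0.161 by edgeR). SOD3, the extracellular superoxide dismutase, was the only 1 of 21 antioxidant genes with an unadjusted p under 0.05, beside the same 4.36%. It measured 27.9 and 29.5 CPM in the binge drinkers and 17.8 in the low drinker, against 19.2 to 83.5 in very heavy drinkers and 22.4 to 50.9 in controls (log2 fold change -0.66, and -0.47 with an unadjusted p of 0.205 by edgeR without the low drinker).

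In the signalling lists, few members stood out. Of 14 GIRK channel and RGS genes, RGS7, which speeds the shut-off of G proteins coupled to these channels, measured 5.34, 5.96 and 3.62 CPM, all below the very heavy drinkers at 6.14 to 11.2 but inside the controls at 1.61 to 11.2 (log2 fold change -0.70, and -0.51 without the low drinker). The list median was -0.05. Calcium-activated potassium channels had a median of -0.37 over 9 genes, 8 of them negative, but only 2 of the 9 had at least 10 counts in every animal. Nicotinic receptor subunits had a median of -0.48 over 8, again with 2 well covered. The 15 GABA-A and glycine receptor genes had a median of 0.07 and the 21 glutamate receptor genes 0.06, with 8 and 11 members positive. Opioid receptors and peptides had a median of 0.22 over 7 and arrestins and receptor kinases 0.18 over 5.

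Among 20 neuropeptides 16 were lower and 4 higher in the low and binge drinkers, with a median of -0.32, and 6 of them were well covered, with a median of -0.18. Between the arms 0 of the 20 were higher and 1 lower at an unadjusted p under 0.05 by edgeR, beside 1.85% and 2.51% of all transcripts. Against controls the list median was -0.04 for the low and binge drinkers and 0.31 for the very heavy drinkers. For the latter 5 of the 20 were higher and 1 lower at that level, beside 2.2% and 2.27% of all transcripts. Single animals carried some of these. CARTPT reached 34.9 CPM in very heavy drinker 5 and 12.0 in very heavy drinker 9, with a median of 1.37. CALCB reached 10.3 CPM in very heavy drinker 5, with a median of 1.77. GRP, the gastrin-releasing peptide, measured 0.435, 0.273 and 0 CPM and did not overlap the very heavy drinkers at 0.499 to 2.81. Controls spanned 0.211 to 5.39 and held both binge drinkers, and the log2 fold change of -2.35 was -1.79 (unadjusted p = 0.123 by edgeR) without the low drinker. The 13 mitochondrially encoded genes were lower for 11 of 13, with a median of -0.24 (-0.37 without the low drinker) and with none at an unadjusted p under 0.05. They share their scaling with the mitochondrial share of counts given above. Histone and DNA modifying enzymes had the opposite balance, with 16 of 21 higher, a median of 0.20 and 0 at an unadjusted p under 0.05 by edgeR. Over all transcripts tested 6398 were higher and 7320 lower. KMT2A, a histone H3 methyltransferase, measured 111, 102 and 112 CPM against 64.8 to 109 in very heavy drinkers and 76.9 to 119 in controls. All of the 3 were inside the controls, and its log2 fold change was 0.34 (SE 0.20). Directional balances of this kind move with the scaling of the libraries, since leaving out scaling beyond library size raised the median over all transcripts by 0.12 and raised the share of higher transcripts among those at an unadjusted p under 0.05 from 42.4% to 68.5%. That share was 31.2% with DESeq2 and 61.6% with limma-voom.

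The medians of the remaining lists were those of immediate early genes (0.23 over 13), alcohol and aldehyde metabolism (0.08 over 8), stress hormone signalling (-0.11 over 13), chaperones and the unfolded protein response (-0.05 over 21), antioxidant defence (-0.11 over 21), cholesterol genes (-0.15 over 18), clock genes (0.07 over 18), neurotrophic factors and receptors (-0.15 over 13), synaptic vesicle release (-0.03 over 22) and synucleins with Parkinson disease genes (-0.17 over 12). Without scaling beyond library size the medians of the GIRK and RGS, stress hormone, innate immune, chaperone and vesicle lists became positive. Without the low drinker those of the GIRK and RGS and the innate immune lists were 0.04 each, that of stress hormone signalling 0.0054 and that of the GABA-A and glycine receptors -0.04. Leaving it out also moved those of the clock genes to 0.20, alcohol and aldehyde metabolism to 0.014, vesicle release to -0.09, opioid genes to 0.14 and glutamate receptors to 0.10. The 11 myelin genes had a median of 0.02, which was -0.24 without the low drinker. MOBP, an abundant myelin protein picked after its values were seen, measured 164 and 142 CPM in the binge drinkers and 345 in the low drinker, against 194 to 273 in very heavy drinkers. The low drinker and the binge drinkers thus lay on opposite sides of the very heavy drinkers.

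**Figure D5:**
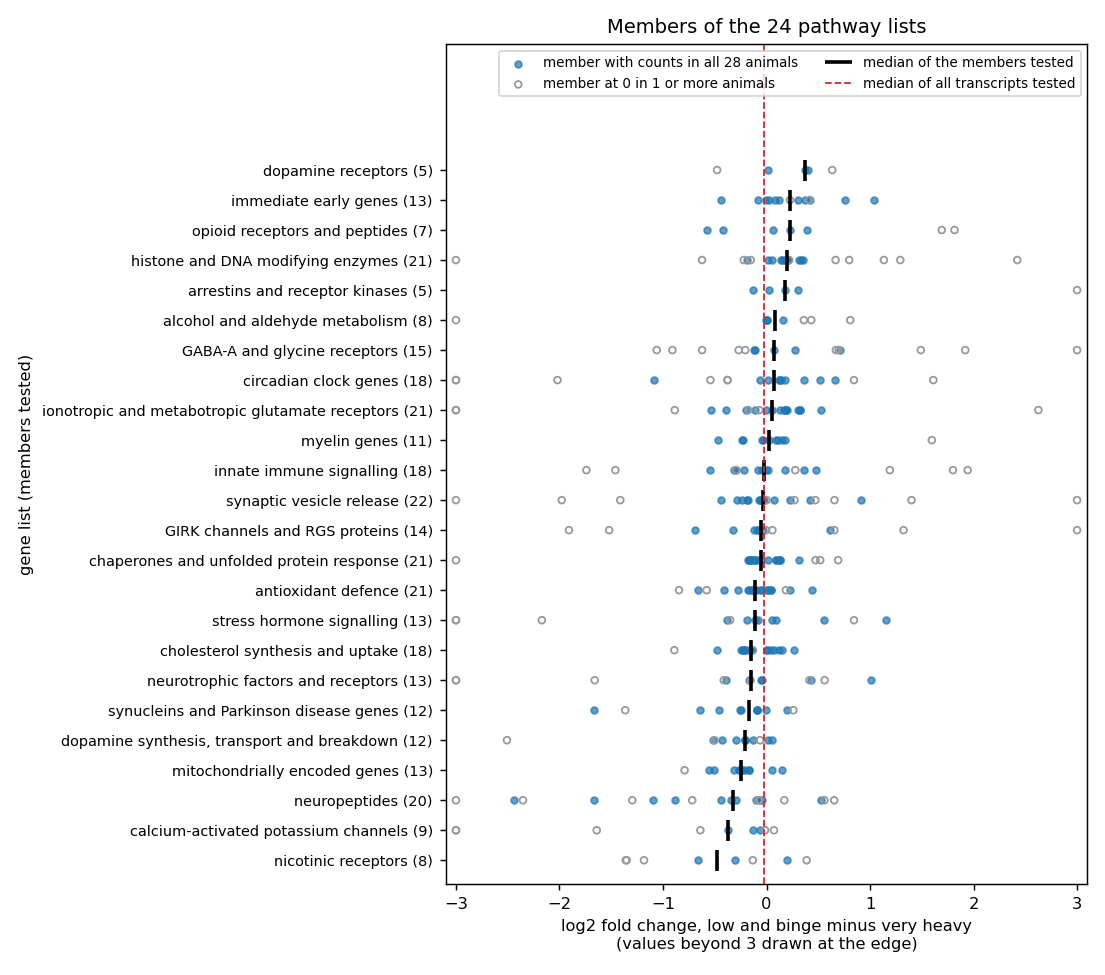
Points are the log2 fold changes of the members of 24 pathway lists, low and binge drinkers minus very heavy drinkers (x axis; values beyond 3 are drawn at the edge). Filled points had counts in all 28 animals and open points were at 0 in at least 1; bars are list medians and the dashed line is the median of all transcripts, -0.03.

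Marker sums of the main cell types did not separate the arms. They cover only the named markers that passed the filter. These were 7 of 9 for astrocytes, 4 of 6 for serotonin neurons, 3 of 5 for ependymal cells and choroid and 2 of 9 for blood cells. Oligodendrocyte markers summed to 15134 and 15907 CPM in the binge drinkers and 21438 in the low drinker, with 14275 to 20860 in very heavy drinkers and 13127 to 22571 in controls. Astrocyte markers summed to 4437, 5102 and 5279 CPM against 4395 to 5712 in very heavy drinkers, and microglial markers to 490.1, 583 and 401 CPM against 209 to 625.3. Markers of GABA neurons (927 to 1017 CPM), glutamate neurons (114 to 167), oligodendrocyte precursors (579 to 682) and endothelial and mural cells (162 to 176) in the 3 low and binge drinkers all lay inside the ranges of both the very heavy drinkers and the controls. Serotonin neuron markers were at 13.6, 20.8 and 26.6 CPM, with binge drinker 1 under the very heavy drinkers' 19.5 to 41.3 but inside the controls' 13.1 to 49.7. Ependymal and choroid markers were at 25.5, 53.1 and 14.9 CPM, and 1 very heavy drinker reached 710.01, above the highest control at 303. Blood cell markers were at most 10.6 CPM in both arms, and in 2 of the 3 low and binge drinkers, at 0.475 and 0.319, they were below the controls' 1.08 to 10.3. Of 79 markers tested, 1 astrocyte marker was higher and 1 blood marker lower at an unadjusted p under 0.05 (2.53%, beside 4.36% of all transcripts). The summed dopamine neuron markers were above 0 in every animal, but at levels that differed widely between animals, and DRD2 among them was at 0 in 5 of the 28. With their score as a term in the fit, the log2 fold change was 1.78 for EMILIN3, 0.68 for TGFBR3 and 0.46 for FOXO1, and 0.39 for DAT (SLC6A3) and 0.28 for VMAT2 (SLC18A2), which are themselves in the score.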

How the data were processed

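Bulk RNA of the VTA was sequenced by the authors from 28 animals, and per the submitters' processing notes the reads were trimmed with Trim Galore 0.6.7 and quantified with Salmon 1.9.0, with DESeq2 1.36.0 also named. The study's methods give the genome as Mmul_10. The deposited table holds estimated counts per transcript, 1 entry for each gene symbol, and every column was matched to an animal by its label. Groups came from the drinking labels and cohorts from the study's source data.

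Estimated counts were rounded to whole numbers. The 1 entry without a symbol, 1.16e-05% of all counts, was left out. Transcripts reaching 5 counts in 3 or more animals were kept, scaled by TMM and fitted in 1 model of all 28 animals with edgeR 4.0.16 (quasi-likelihood test, Benjamini-Hochberg at 0.05, R 4.3.3), with low and binge drinkers as 1 group. limma 3.58.1 (voom) and DESeq2 1.42.0 were alternatives, beside other scalings, filters, covariates, cohorts and single animals left out. CPM values carry the TMM scaling. Positions against the 11 controls used log2 CPM with a prior count of 2. Library values and components were compared by exact permutation tests in Python 3.11.15 with scipy 1.17.1. The scripts were tested on simulated data. No pair of the 12 libraries had more than 14.4% identical counts over the transcripts tested. Coordinates are from the RefSeq annotation of Mmul_10. CPM is not divided by transcript length, so levels were not compared between genes. The depth of 12303914 to 27338669 counts per library limits what sparse transcripts can show.

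Genes were named by rule: the 10 higher and 10 lower with the smallest p among transcripts with at least 10 counts in every animal, up to 3 members of each pathway list by p, the genes the study related to function, and up to 10 such well-covered transcripts lying outside both other groups. TH, MOBP and the sparse transcripts outside both groups were named after their values were seen. Some genes that met these rules are not reported here. The members and gene lists were chosen with earlier results of these data known. The haemoglobin genes HBA1, HBA2 and HBB were not analysed here.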

Additional observations from a re-analysis of the deposited data

Results flagged for a closer look

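Among the named genes, single very heavy drinkers stood far from the other 8 in 7 of 104 groups examined, by Dixon's criterion, and 6 of them are described. No chance rate can be set beside this count. GRM4, CALR, CLOCK, HDAC3 and NR3C2 were at 0 in 5 to 8 of the 9 very heavy drinkers, and pathway genes were named by their small p. GRM4, a metabotropic glutamate receptor, measured 2.08 CPM in very heavy drinker 2 and at most 0.210 in the others, and CALR, the chaperone calreticulin, measured 7.32 CPM in the same animal and at most 0.380 in the others. CLOCK, a core circadian activator, measured 3.67 CPM in very heavy drinker 8 and 0 in the other 8. HDAC3, a histone deacetylase, measured 2.12 CPM in very heavy drinker 7 and at most 0.272 in the others. NR3C2, the mineralocorticoid receptor, measured 1.50 CPM in very heavy drinker 1 and 0 in the other 8, and GRK3, a receptor kinase, was at 5.67 CPM in that animal against 12.5 or more in the others.

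A test of whether low and binge minus very heavy drinkers differed between the cohorts (cohort 2 minus cohort 1, edgeR's quasi-likelihood test, added after the data were seen) called 266 transcripts, 255 of them positive and 11 negative, and 188 of the 266 were at 0 in the low drinker. Cohort 1 has 1 animal in the smaller arm, whose spread is taken from the other groups, so the cohort and the low drinker's library cannot be told apart. Among the named genes DBP was called, with a difference between cohorts of 4.41 on the log2 scale.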

How the results depend on the processing

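The 0 adjusted calls of the main comparison became 90 with DESeq2's Wald test, 2 with limma-voom, 1 in cohort 2 alone, 185 in cohort 1 alone and 386 for the low drinker alone. They stayed 0 under the other scalings and filters, with cohort or the dopamine marker score as a term, with the 12 animals alone, and without each of the 12 animals in turn. Against controls, the low and binge drinkers gave 92 calls with DESeq2 and 4 with limma-voom, and the very heavy drinkers 28 with DESeq2. At an unadjusted p under 0.05 the 667 of the first became 406 with at least 10 counts in every animal, and the 615 of the second became 326 with that filter, 1226 with no filter and 945 with cohort as a term. The 19 pathway members at an unadjusted p under 0.05 became 12 with limma-voom (3.57%, beside 5.06% of all transcripts), 12 with the 12 animals alone (3.58%, beside 3.55%) and 6 with at least 10 counts in every animal (3.02%, beside 4.02%), and 9 to 20 with 1 animal left out. The 9 was without the low drinker, and without binge drinker 1 it was 12.

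The 11 transcripts outside both other groups were 6 with at least 10 counts in every animal, 34 against the second lowest to second highest control, 22 against each animal's own cohort's controls and 10 without scaling beyond library size, which left out PFDN2, and 11 to 128 with 1 animal left out (an alternative added after the data were seen), with 75 without the low drinker, 73 without binge drinker 1 and 128 without binge drinker 2. Without the low drinker, binge drinker 1 and binge drinker 2 in turn, the 87 transcripts with no overlap became 376, 317 and 390, and the 73 outside the controls 293, 279 and 455. The latter were 387 against own-cohort controls. A smaller arm meets these conditions more easily. Within cohort 1 the low drinker minus the very heavy drinkers was 61654 in total counts, 2.55 in mitochondrial percent and 1.64 in percent taken by the 10 most abundant transcripts, and within cohort 2 the arms differed by 308 detected transcripts. Each had the opposite sign when pooled.

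Of the single-gene log2 fold changes 2399 kept their direction and side of the threshold, 11 passed it and 47 changed sign. In cohort 1 alone the latter were CDH23 (-1.35), CARTPT (1.63), CRHR2 (-0.16), HSP90AA1 (0.11), MBP (0.13), ACSS1 (-0.20), MOG (0.57), CNP (0.085), OPRK1 (-0.58) and SLC32A1 (0.45). For the low drinker alone they were CDH23 (-0.66), CRHR2 (-0.28), PRDX1 (0.012), HSP90AA1 (0.30), MBP (0.083), ACSS1 (-0.26), MOG (0.046), SPR (0.030), ARRB1 (-0.10), OPRK1 (-0.25) and SLC32A1 (0.46). In cohort 2 alone they were SNCG (0.093), DDIT3 (0.015), PDYN (-0.011), SLC17A6 (0.17), DRD2 (0.15) and SLC6A3 (0.039). SLC18A2 and SLC6A3 were 0.071 and 0.083 with limma-voom and 0.28 and 0.39 with the marker score as a term, and SLC32A1 was 0.0071 without scaling beyond library size. With 1 animal left out, the value ranged from -0.37 to 1.57 for CRHR2, -0.44 to 0.034 for HSP90AA1, -0.038 to 0.32 for ACSS1, -0.35 to 0.024 for MAOA, -0.16 to 1.24 for ACSS2, -0.16 to 0.54 for OPRK1, -1.12 to 0.0056 for SLC18A2, -2.10 to 0.11 for DRD2, -0.41 to 0.14 for SLC32A1 and -1.29 to 0.35 for SLC6A3. The cause of these changes was not tested. No paired analysis was possible. Each library is a different animal. The study yoked each caloric control to a drinker, but the labels give neither these pairs nor replicate numbers that tie animals across groups.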
